A study of Sus scrofa with 15 samples.

Results

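The genes described here encode the enzymes and helper proteins that build glycogen and take it apart: the glycogen phosphorylases PYGM, PYGL and PYGB, the glycogen synthases GYS1 and GYS2, the primer protein GYG1, the branching enzyme GBE1, the phosphatase-targeting subunit PPP1R3C and the pyrophosphorylase UGP2. The 9 genes were chosen by symbol for their role in the pathway, with earlier results of these data known. All 9 were found among the 30477 Ensembl genes listed in each library, and all 9 are among the 14918 genes that passed the filter on low counts.

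Glycogen is the branched glucose store of animal cells. UGP2 makes UDP-glucose, the activated donor; glycogenin (GYG1) starts the chain by attaching glucose to itself; glycogen synthase (GYS1 in most tissues, GYS2 mainly in liver) lengthens it; and GBE1 sets the branch points. Glycogen phosphorylase releases glucose 1-phosphate from the chain ends, and its isoforms are named after the tissues where they were first studied: PYGM for muscle, PYGL for liver and PYGB for brain. PPP1R3C, also called PTG, brings protein phosphatase 1 to the glycogen particle, where dephosphorylation switches synthase on and phosphorylase off. White fat holds little glycogen compared with muscle or liver, and its adipocytes use the store in the passage between feeding and fasting.

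Backfat RNA of 15 growing Iberian pigs was sequenced, 1 library per pig and 5 pigs per diet, with counts on genes of 22373715 to 34745218 per library. The pigs of group C ate a control compound feed and those of group DOP a compound feed made with dry olive pulp. Those of group WCOC ate a compound feed together with a silage of wet crude olive cake that was freely available. In all 3 groups the compound feed was rationed below free energy intake, less tightly in C than in DOP and WCOC, so feeding level also differed between the diets. The biopsies were taken from the dorsal lumbar fat at the end of the growing period, when the pigs were about a year old. Each diet was fed in its own pen, so diet and pen cannot be told apart, feed intake of single pigs was not measured, and the pigs sequenced were picked mainly for the amount and quality of their RNA.

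Libraries are named by diet and replicate (C1 to C5, DOP1 to DOP5, WCOC1 to WCOC5). CPM are TMM-scaled counts relative to the library total on genes. The adipocyte marker list (9 of 10 genes matched, led by ADIPOQ and LPL) summed to 15410 to 23700 CPM across the 15 libraries, so adipocyte RNA was present in each of them. The skeletal muscle list (15 of 24 genes matched) summed to 59.0 to 5268 CPM in C, 44.5 to 64050 CPM in DOP and 24.5 to 965 CPM in WCOC, and 1 of the 15, TNNI2, is listed at 0 in all libraries. In DOP5 the muscle list (64050 CPM) exceeded the adipocyte list (18480 CPM), while in every other library the adipocyte list was the larger. Most liver and brain markers were low: of 6 liver markers, APOA1 stood at 122 to 234 CPM, ALB at 3.24 to 7.69 CPM and the other 4 below 1 CPM, and of 6 brain markers MBP, which Schwann cells of peripheral nerves also make, reached 14.98 to 49.9 CPM and GFAP at most 2.16 CPM. The run identifiers put all DOP libraries and C5 on flow cell B and the other C libraries with all WCOC libraries on flow cell A. No comparison with DOP could therefore be made within a flow cell, beyond the 5 DOP libraries against C5 alone.

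The 3 phosphorylase isoforms are separate genes with similar coding sequences, so how far their reads can be told apart matters for the isoform values below. On Sscrofa11.1, PYGM lies at chr2:7409330-7421256 (plus strand, 20 exons), PYGL at chr1:180645849-180704124 (minus strand, 21 exons, overlapped by ABHD12B on the other strand) and PYGB at chr17:30940457-30995688 (plus strand, 20 exons). In the RefSeq models the coding sequences of PYGM and PYGB are identical at 78.0% of aligned bases, those of PYGL and PYGB at 75.4%, and those of PYGM and PYGL at 75.1%. The longest runs of bases that a pair has in common are all exonic and are shown for that reason, each read on the strand of the gene.
PYGM and PYGB, 35 bases (chr2:7411497-7411531 and chr17:30973624-30973658): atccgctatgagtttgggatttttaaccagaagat
PYGL and PYGB, 25 bases (chr1:180670012-180670036 and chr17:30984308-30984332): ggatccatgagtacaagcggcagct
PYGM and PYGL, 21 bases (chr2:7409958-7409978 and chr1:180703906-180703926): cgctggatccgcacgcagcag
GYS1 and GYS2, 20 bases (chr6:54245076-54245095 and chr5:51880252-51880271): accacccacgccacgctgct
Each run is shorter than a sequencing read of this study, so no coding read matches both genes of a pair along its whole length. The synthase genes GYS1 (chr6:54234600-54250211, minus strand, overlapped by LOC110261018 on the other strand) and GYS2 (chr5:51862952-51915153, plus strand) are identical at 68.7% of aligned coding bases.

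Levels of different genes can be compared only per length, as CPM per kilobase of exon (RefSeq gene models). By this measure GBE1 was the most abundant of the 9 genes in C, with a median of 151 CPM per kb (range 123 to 166). PYGL followed at 68.8 (62.8 to 78.5) and PYGM at 57.5 (53.7 to 159), and these neighbours overlapped. GYS1 at 37.7 (31.5 to 40.4), GYS2 at 35.1 (18.7 to 38.7), PPP1R3C at 29.4 (23.2 to 38.2) and UGP2 at 27.9 (23.8 to 29.8 CPM per kb) formed a group in which each overlapped the next. GYG1 at 14.2 (12.1 to 21.8) had a lower median than each of that group and overlapped the range of GYS2 but not that of UGP2, and PYGB, at 0.431 (0.342 to 0.723 CPM per kb), lay far below all others. The PYGL model holds coding exons only, which shortens its length and raises its value per kilobase. By coding length the order of PYGM and PYGL turned, with median shares of the phosphorylase level of 52.4% for PYGM and 47.0% for PYGL in C.

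**Figure D1:**
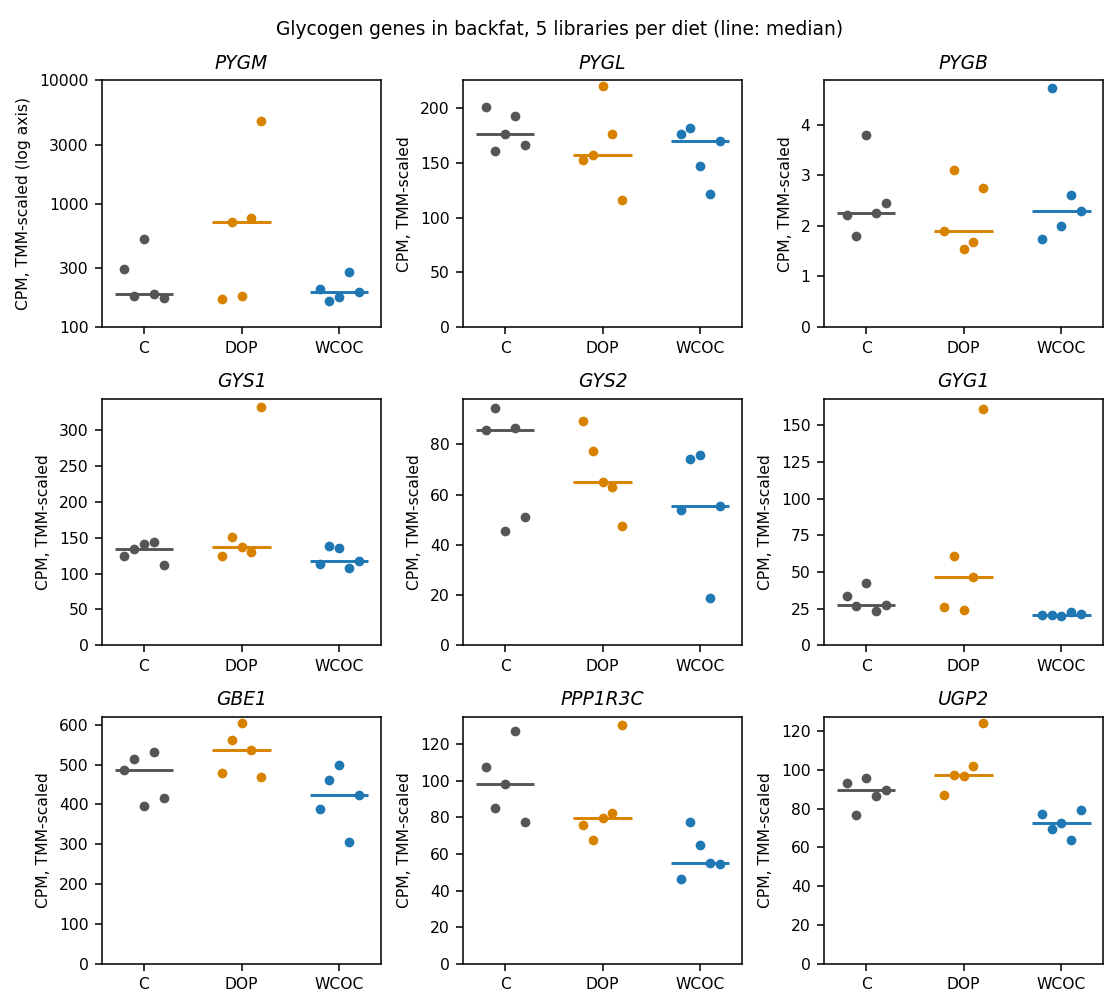
TMM-scaled CPM of each of the 9 glycogen genes in the 15 libraries, grouped by diet (C, DOP, WCOC), with 1 point per library and a line at the median of each diet; the PYGM panel has a log axis and the other panels start at 0. PYGM, GYG1 and GYS1 each have 1 DOP library, DOP5, far above the others (4691, 161 and 333 CPM), while PPP1R3C lies lower in WCOC than in C.

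Whether a diet changed these genes was asked in 3 comparisons (each olive diet against C, and WCOC against DOP) from 1 edgeR quasi-likelihood fit over all 15 libraries. A gene was counted as differentially expressed (DEG) with a Benjamini-Hochberg adjusted p below 0.05, taken over all 14918 genes, and an absolute log2FC that reached 0.58. In DOP vs. C, 0 of the 9 genes were DEGs, where 0.764% of all tested genes were; 3 of the 9 had an unadjusted p under 0.05 (17.6% of all tested genes did), and DESeq2 with the same limits called 1, PYGM (3.32% of all tested genes). In WCOC vs. C, 1 of the 9, PPP1R3C, was a DEG and lower in WCOC (6.25% of all tested genes were DEGs, 3.93% lower), and 2 of the 9 had an unadjusted p under 0.05 (26.4%). In WCOC vs. DOP, 2 of the 9, PYGM and GYG1, were DEGs, both lower in WCOC (7.76% of all tested genes, 5.11% lower), and 6 of the 9 had an unadjusted p under 0.05 (28.1%). The median log2FC of the 9 genes was 0.18, −0.28 and −0.49 in the 3 comparisons, in this order, against 0.01, 0.00 and 0.00 over all tested genes. The groups of 5 libraries did not overlap for 0 of the 9 genes in DOP vs. C (3.47% of all tested genes), for 1 gene in WCOC vs. C (7.62%) and for 2 genes in WCOC vs. DOP (8.9%). C is shared by the first pair of comparisons, and each diet enters 2 of the 3.

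**Figure D2:**
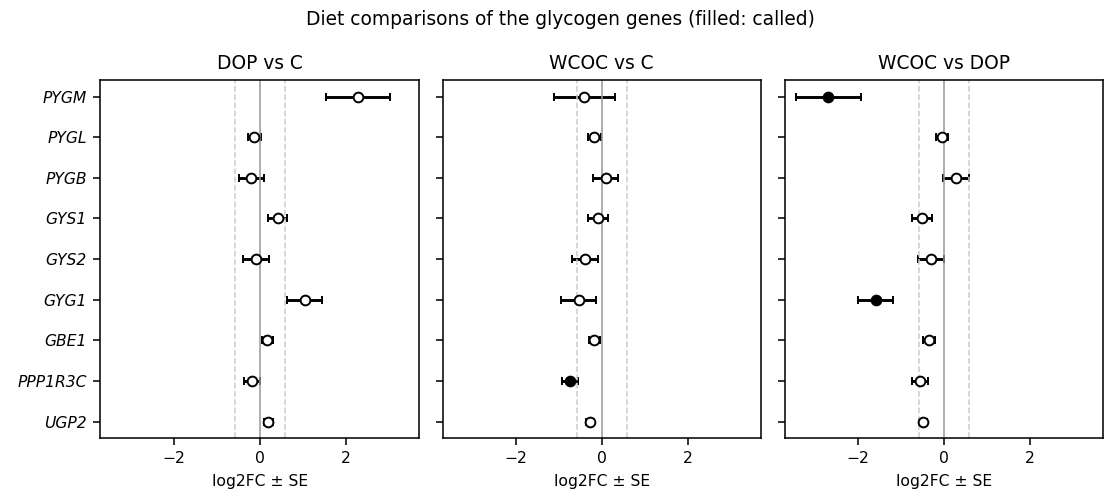
Log2FC of each of the 9 glycogen genes for each olive diet against C and for WCOC against DOP, with bars of 1 SE from the edgeR fit; filled points are DEGs by the limits given above. The 3 filled points are PPP1R3C in WCOC vs. C (−0.73) and PYGM (−2.68) and GYG1 (−1.58) in WCOC vs. DOP, and the SE of PYGM is the widest.

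Among the phosphorylases, PYGM (ENSSSCG00000013022) had the widest spread of the 9 genes. It stood at 295, 177, 514, 186 and 173 CPM in C1 to C5. In DOP1 to DOP5 it stood at 169, 707, 179, 768 and 4691 CPM. In WCOC1 to WCOC5 it stood at 202, 163, 176, 280 and 193 CPM. In each diet some libraries lay near the same floor of 163 to 202 CPM, and the DOP mean of 1303 ± 1915 CPM (SD, n = 5) rested on 3 of its libraries, DOP5 above all. The log2FC was 2.27 (SE 0.74, edgeR adjusted p = 0.147) in DOP vs. C, −0.41 (SE 0.71, adjusted p = 0.757) in WCOC vs. C and −2.68 (SE 0.75, adjusted p = 0.0337) in WCOC vs. DOP. The groups overlapped in all 3 comparisons. The call in WCOC vs. DOP was lost in 6 of the 10 fits that left out a DOP or WCOC library, those without DOP5 (log2FC −1.17, adjusted p = 0.128), WCOC1, WCOC2, WCOC3, WCOC4 or WCOC5. Without DOP5 the log2FC in DOP vs. C was 0.76 (SE 0.45, adjusted p = 0.523). With the mean of the muscle list as a covariate the log2FC was −0.39 (adjusted p = 0.723), and with flow cell as a covariate, a fit that rests on C5 as the link between the flow cells, it was −3.44 (adjusted p = 0.382).

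ACTA1, the actin of skeletal muscle fibres, was read in the same libraries as a check. It stood at 1357, 14.9, 1883, 108 and 37.5 CPM in C1 to C5. In DOP1 to DOP5 it was 12.6, 6543, 112, 3238 and 23994 CPM. In WCOC1 to WCOC5 it was 116, 48.3, 5.75, 377 and 26.1 CPM. The 5 libraries above 1000 CPM, C1, C3, DOP2, DOP4 and DOP5, are the 5 with the most PYGM, from 295 to 4691 CPM. In the 9 libraries with at most 200 CPM of ACTA1 (3 of C, 2 of DOP and 4 of WCOC), PYGM lay between 163 and 202 CPM, while ACTA1 itself ranged from 5.75 to 116 CPM. The remaining library, WCOC4, with 377 CPM of ACTA1, had 280 CPM of PYGM. In bulk tissue a different share of cells of a type and a different RNA content per cell cannot be told apart.

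Across the 15 libraries, log2 CPM of PYGM and ACTA1 correlated with a Pearson r of 0.869 (permutation test, two-sided, adjusted p = 0.000135 over 9 relations) and a Spearman rho of 0.886 (adjusted p = 0.00036). Without DOP5 and DOP2, the 2 libraries farthest from the ACTA1 median, r was 0.863. Within flow cell A it was 0.851 (9 libraries) and within flow cell B 0.919 (6 libraries). In an alternative chosen after seeing the data, the 5 ACTA1-rich libraries were left out, which kept 3 C and 2 DOP libraries beside those of WCOC. Since these 5 are also the libraries with the most PYGM, a small PYGM difference was set by the choice. The log2FC of PYGM was then −0.05 (SE 0.20) in DOP vs. C, 0.18 in WCOC vs. C and 0.22 in WCOC vs. DOP. In these fits 0 of the 9 genes were DEGs in any comparison, where 0.0%, 2.31% and 0.6% of all tested genes were, in the same order. The genes most like PYGM over the 15 libraries were PFKM, the muscle form of phosphofructokinase (r = 0.992), DTNA (r = 0.989) and GRIP2 (r = 0.986).

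**Figure D3:**
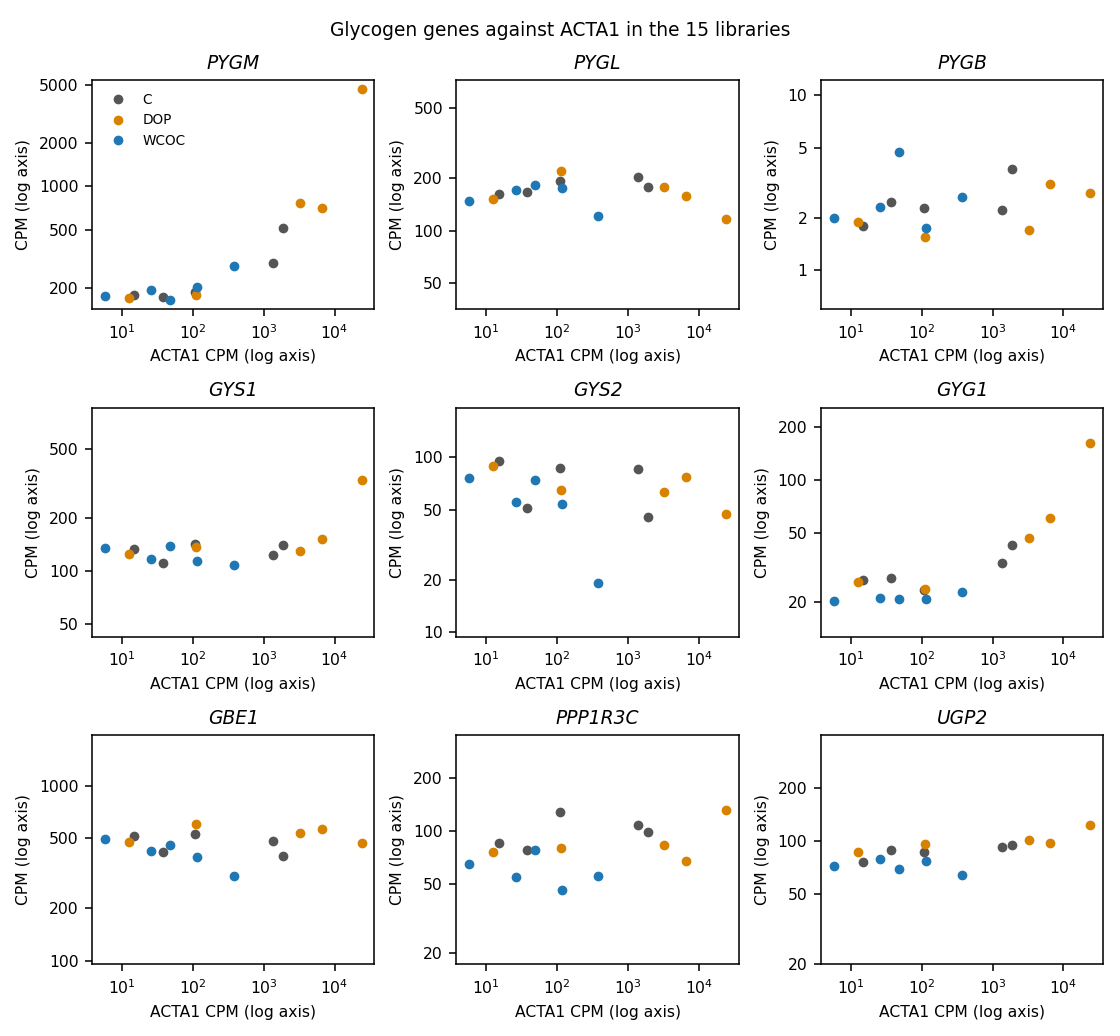
CPM of each of the 9 glycogen genes against CPM of ACTA1 in the 15 libraries, both on log axes, coloured by diet (C, DOP, WCOC). PYGM and GYG1 are level up to about 200 CPM of ACTA1 and climb beyond it, to 4691 and 161 CPM in DOP5, while PYGL, GYS2 and GBE1 show no such climb.

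PYGL (ENSSSCG00000005024), the liver-type isoform, was steady. It ranged from 161 to 201 CPM in C (median 177), from 116 to 220 CPM in DOP (median 157) and from 122 to 182 CPM in WCOC (median 170). Its lowest value, 116 CPM, was in DOP5, the library with the most PYGM. The log2FC was −0.13 (SE 0.15) in DOP vs. C, −0.17 (SE 0.15) in WCOC vs. C and −0.05 (SE 0.15) in WCOC vs. DOP, with edgeR adjusted p of 0.715, 0.487 and 0.876. Its closest genes were FOLR2 (r = 0.851), a folate receptor carried by some tissue macrophages, TFE3 (r = 0.839), a transcription factor of lysosomal genes, and RNF114 (r = 0.828). PYGB (ENSSSCG00000022815), the brain-type isoform, was read at 42 to 126 counts per library, or 1.54 to 4.72 CPM, and did not pass the test in any comparison (log2FC −0.19, 0.09 and 0.28, each with an SE of about 0.30).

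Taken per kilobase, PYGL made up 46.1% to 56.5% of the phosphorylase level in the C libraries other than C3, where it made up 30.1%. PYGM made up 43.2% to 53.7% in the same 4 libraries and 69.6% in C3. In DOP1 and DOP3 the PYGM share was 46.7% and 39.1%, in DOP2 and DOP4 it was 78.0% and 77.4%, and in DOP5 it was 96.9%. In WCOC it was 41.3% to 48.6% in 4 libraries and 64.4% in WCOC4. The 9 libraries with at most 200 CPM of ACTA1 all had a PYGM share of 39.1% to 48.6%, and the other 6 had a larger one. By coding length the medians were 52.4% PYGM and 47.0% PYGL in C, 81.4% and 18.5% in DOP, and 53.6% and 46.0% in WCOC, so which isoform was the larger in C and WCOC depends on the length used. PYGB made up 0.0351% to 0.736%, the lowest share in DOP5.

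**Figure D4:**
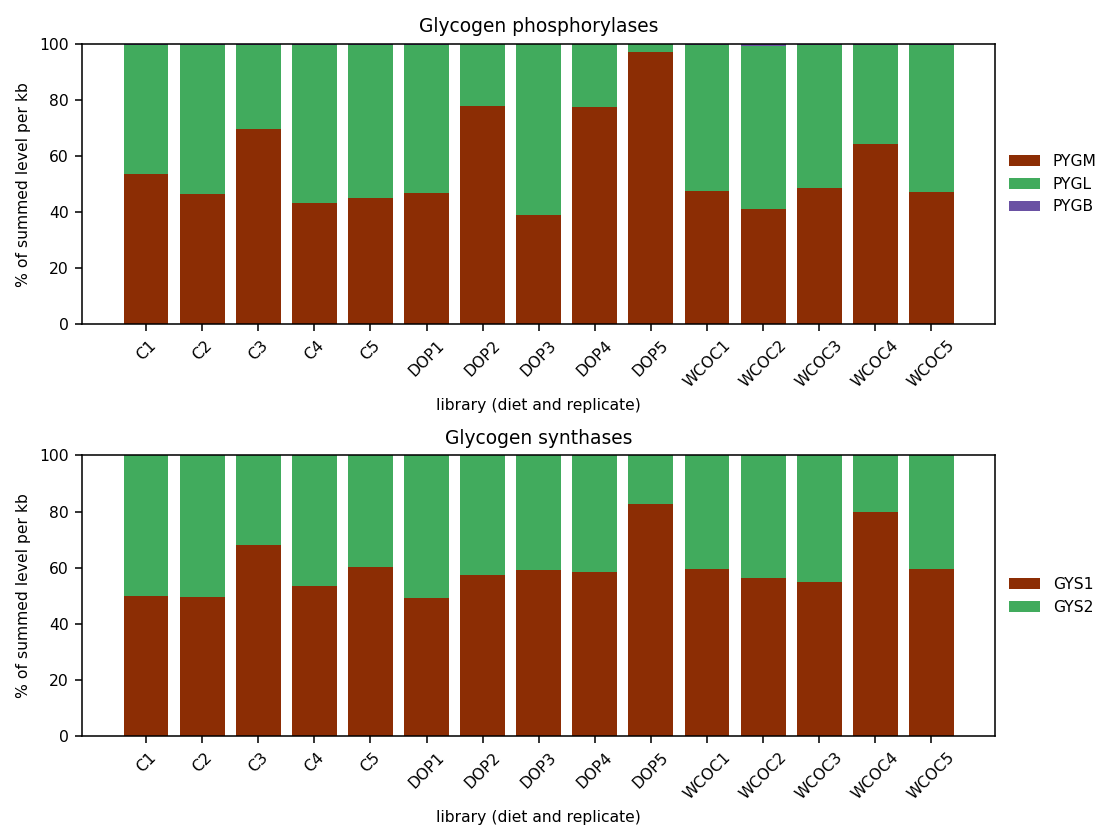
Share in percent of PYGM, PYGL and PYGB in their summed level per kilobase (stacked bars, 1 per library, C1 to WCOC5), and of GYS1 and GYS2 in theirs. PYGM rises to 96.9% in DOP5, and GYS1 holds the largest shares in DOP5 (82.8%) and WCOC4 (79.7%).

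Of the synthases, GYS1 (ENSSSCG00000003154), the form of muscle and most other tissues, ranged from 112 to 143 CPM in C and from 108 to 139 CPM in WCOC. In DOP1 to DOP5 it stood at 125, 152, 137, 130 and 333 CPM. DOP5 stood apart, since the other 14 libraries lay between 108 and 152 CPM. The log2FC was 0.42 (SE 0.22, edgeR adjusted p = 0.351) in DOP vs. C and −0.51 (SE 0.23, adjusted p = 0.151) in WCOC vs. DOP. Without DOP5 it was 0.05 (SE 0.10) and −0.15 (SE 0.10), with adjusted p of 0.887 and 0.389. The correlation of GYS1 with ACTA1 (r = 0.563, permutation adjusted p = 0.0346; rho = 0.343, adjusted p = 0.318) rested on 2 libraries, since r was 0.0147 without DOP5 and DOP2. Its closest genes were GPI (r = 0.965), a glycolytic enzyme that converts glucose 6-phosphate, LRRC20 (r = 0.951) and HR (r = 0.946). By rank these relations were weaker, with a Spearman rho of 0.757, 0.721 and 0.789.

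GYS2 (ENSSSCG00000000577), the liver-type synthase, ranged from 45.6 to 94.4 CPM in C, from 47.5 to 89.3 CPM in DOP and from 18.99 to 75.9 CPM in WCOC. WCOC4 had the 18.99 CPM, less than any other library, and the other 14 lay at 45.6 CPM or above. The groups overlapped, and the log2FC was −0.09 (SE 0.31), −0.39 (SE 0.31) and −0.30 (SE 0.31) in the 3 comparisons in the same order, with edgeR adjusted p of 0.922, 0.452 and 0.575. Per kilobase GYS1 made up 49.1% to 60.1% of the synthase level in 12 libraries, 68.1% in C3, 79.7% in WCOC4 and 82.8% in DOP5. GYS2 values ran with GBE1 (r = 0.805), and its closest genes were HLCS (r = 0.880), which attaches biotin to carboxylases, DCBLD2 (r = 0.871) and BLTP3B (r = 0.869).

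GYG1 (ENSSSCG00000011698; chr13:89221086-89259569, plus strand), which primes the chain, had no overlap between WCOC and either other diet. Of all tested genes, 7.62% had none in WCOC vs. C and 8.9% in WCOC vs. DOP. GYG1 stood at 33.7, 26.7, 42.3, 23.5 and 27.5 CPM in C1 to C5. In DOP1 to DOP5 it stood at 26.0, 60.8, 23.8, 46.6 and 161 CPM. In WCOC1 to WCOC5 it stood at 20.9, 20.8, 20.3, 22.997 and 21.2 CPM. The 5 WCOC libraries lay close together and below every C and DOP library, the nearest being C4 at 23.5 CPM. The log2FC was −1.58 (SE 0.41, edgeR adjusted p = 0.0254) in WCOC vs. DOP, −0.53 (SE 0.41, adjusted p = 0.426) in WCOC vs. C and 1.05 (SE 0.41, adjusted p = 0.202) in DOP vs. C. The difference between WCOC and C did not pass the test although the libraries did not overlap. In the fit of only these 2 diets, which estimates the spread without DOP, its log2FC of −0.54 (SE 0.14, adjusted p = 0.0449) passed the limit on p and not the limit on size. GYG1 was the member most like PYGM (r = 0.968). It correlated with ACTA1 at r = 0.837 (permutation adjusted p = 0.000135) and rho = 0.686 (adjusted p = 0.0268), with r = 0.757 without DOP5 and DOP2, 0.749 within flow cell A and 0.890 within flow cell B. The 5 ACTA1-rich libraries are also the 5 with the most GYG1. A smaller GYG1 difference without them was therefore set by the choice, and its log2FC in WCOC vs. DOP was then −0.23 (SE 0.11, adjusted p = 0.430). With the mean of the muscle list as a covariate it was −0.58 (adjusted p = 0.301). With flow cell as a covariate it was −1.78 (adjusted p = 0.388). The call was also lost without WCOC1, WCOC3, WCOC4 or WCOC5, with adjusted p of 0.0507 to 0.0561. Without DOP5 the log2FC was −0.89 (SE 0.24, adjusted p = 0.0390) in WCOC vs. DOP and 0.35 (SE 0.24, adjusted p = 0.589) in DOP vs. C. The genes closest to it were IDH2 (r = 0.988), the mitochondrial NADP-dependent isocitrate dehydrogenase, STRADB (r = 0.986) and YBX3 (r = 0.983).

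GBE1 (ENSSSCG00000012000; chr13:173634401-173909646, plus strand, with LOC102159217 inside its span on the same strand), the branching enzyme, had the highest median per kilobase of the 9 genes in C and WCOC (151 and 132 CPM per kb), while in DOP its 167 CPM per kb lay below the 219 of PYGM. It ranged from 396 to 532 CPM in C, from 468 to 605 CPM in DOP and from 305 to 499 CPM in WCOC, with WCOC4 the lowest library. The groups overlapped in every comparison. The log2FC was 0.18 (SE 0.13) in DOP vs. C, −0.17 (SE 0.13) in WCOC vs. C and −0.35 (SE 0.13) in WCOC vs. DOP, with edgeR adjusted p of 0.529, 0.430 and 0.0970. No relation of GBE1 to ACTA1 was detected (r = 0.0323, permutation adjusted p = 0.910; rho = 0.0429, adjusted p = 0.882). Its closest genes were GHITM (r = 0.924), an inner mitochondrial membrane protein, DHRS7 (r = 0.923) and MCCC2 (r = 0.922), a subunit of the leucine-degrading methylcrotonyl-CoA carboxylase.

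PPP1R3C (ENSSSCG00000010464; chr14:103273401-103278757, minus strand, 2 exons), which targets protein phosphatase 1 to glycogen, was the only member that edgeR called against the control diet. It stood at 108, 85.3, 98.1, 127 and 77.3 CPM in C1 to C5. In DOP1 to DOP5 it stood at 75.6, 67.7, 79.8, 82.6 and 131 CPM. In WCOC1 to WCOC5 it stood at 46.2, 77.6, 64.8, 55.3 and 54.7 CPM. The WCOC libraries lay below the C libraries except that WCOC2 (77.6 CPM) reached C5 (77.3 CPM). The mean was 59.7 ± 11.99 CPM in WCOC and 99.2 ± 19.6 CPM in C (SD, n = 5), a fall of 0.73 on the log2 scale (log2FC −0.73, SE 0.19, edgeR adjusted p = 0.0254), or 1.66-fold lower.

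The fall of PPP1R3C was of similar size within flow cell A alone (log2FC −0.82, SE 0.16, adjusted p = 0.0226). There 4 C and 5 WCOC libraries could be compared, WCOC4 and WCOC5 from lane 8 and the rest from lane 2. With the mean of the muscle list as a covariate the log2FC was −0.66 (SE 0.18, adjusted p = 0.0388). Without the 5 ACTA1-rich libraries it was −0.70 (SE 0.18, adjusted p = 0.0725). With each of the 10 C and WCOC libraries left out in turn the log2FC stayed between −0.85 and −0.63, and the adjusted p ran from 0.0130 to 0.0730, above the limit without C3, C4, WCOC1, WCOC4 or WCOC5. In DOP vs. C its log2FC was −0.18 (SE 0.19, adjusted p = 0.663), and in WCOC vs. DOP −0.55 (SE 0.19, adjusted p = 0.0670). No relation of PPP1R3C to ACTA1 was detected (r = 0.407, permutation adjusted p = 0.237, and rho = 0.361, adjusted p = 0.318). A weaker relation than that of PYGM was not tested. Among the libraries of a diet, r was 0.464 for C, 0.494 for DOP and −0.404 for WCOC. The highest PPP1R3C value, 131 CPM, was in DOP5, the library with the most ACTA1. The macrophage list, which summed to 282 to 784 CPM in C and 133 to 369 CPM in WCOC and had 5 of its 11 tested genes lower in WCOC (3.93% of all tested genes were), moved in the same comparison, and its part in the result was not tested. The closest genes were TMEM101 (r = 0.941), MRPL51 (r = 0.916), a mitochondrial ribosomal protein, and ATP5MC3 (r = 0.911), a subunit of ATP synthase.

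UGP2 (ENSSSCG00000008368; chr3:77975450-78032471, minus strand, overlapped by VPS54 and LOC106507380 on the other strand), the source of UDP-glucose, varied little within a diet. It stood at 93.0, 76.4, 95.5, 86.3 and 89.4 CPM in C1 to C5. In DOP1 to DOP5 it stood at 86.9, 97.4, 96.9, 102 and 124 CPM. In WCOC1 to WCOC5 it stood at 77.2, 69.4, 72.3, 63.9 and 79.4 CPM. Every WCOC library lay below every DOP library, and the C libraries lay between and overlapped both. The log2FC in WCOC vs. DOP was −0.49 (SE 0.10, edgeR adjusted p = 0.00724), past the limit on p and under the limit of 0.58 in size, so UGP2 is not counted as a DEG. In WCOC vs. C it was −0.28 (SE 0.10, adjusted p = 0.0741) and in DOP vs. C 0.20 (SE 0.10, adjusted p = 0.282). UGP2 correlated with ACTA1 at r = 0.688 (permutation adjusted p = 0.0124) and rho = 0.654 (adjusted p = 0.0300), with r = 0.484 without DOP5 and DOP2, 0.525 within flow cell A and 0.855 within flow cell B. Among the 5 libraries of a diet, r was 0.854 for C and 0.827 for DOP, while for WCOC it was −0.47. Without the 5 ACTA1-rich libraries its log2FC in WCOC vs. DOP was −0.34 (SE 0.11, adjusted p = 0.241), and with flow cell as a covariate it was −0.46 (SE 0.20, adjusted p = 0.349). The genes closest to it were GOT2 (r = 0.925), a mitochondrial aminotransferase, PRKACA (r = 0.913), the catalytic subunit of protein kinase A, and NAA20 (r = 0.913).

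Since PYGM and GYG1 ran together over the libraries and PPP1R3C was the member that edgeR called against C, the 250 bases before their RefSeq start sites (Sscrofa11.1) are shown, each read on the strand of its gene, with matches to the motifs searched in capitals.
PYGM (chr2:7409080-7409329, plus strand): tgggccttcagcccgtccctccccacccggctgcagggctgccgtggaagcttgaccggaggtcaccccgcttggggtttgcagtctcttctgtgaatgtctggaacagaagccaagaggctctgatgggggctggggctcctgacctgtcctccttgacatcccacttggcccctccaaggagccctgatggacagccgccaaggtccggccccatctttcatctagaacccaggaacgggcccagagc
GYG1 (chr13:89220836-89221085, plus strand): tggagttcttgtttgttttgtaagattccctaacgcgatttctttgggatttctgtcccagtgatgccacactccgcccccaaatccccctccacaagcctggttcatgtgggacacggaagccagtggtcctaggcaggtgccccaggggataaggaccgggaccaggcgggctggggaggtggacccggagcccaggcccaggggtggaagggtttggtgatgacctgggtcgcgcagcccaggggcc
PPP1R3C (chr14:103278758-103279007, minus strand): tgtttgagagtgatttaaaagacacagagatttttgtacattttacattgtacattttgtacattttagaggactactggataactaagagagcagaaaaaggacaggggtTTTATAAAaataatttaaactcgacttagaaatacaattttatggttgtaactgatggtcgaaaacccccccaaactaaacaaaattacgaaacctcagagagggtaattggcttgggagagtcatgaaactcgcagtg
The motifs searched on both strands were the E-box CAGCTG, the core ACGTG, the TATA box TATAAA, the site of MEF2 and the element TGACGTCA. PYGM and GYG1 hold 0 matches to these letters. PPP1R3C holds 2 overlapping matches to TATAAA, on opposite strands, starting 139 and 137 bases before its start. TATAAA occurs in 9.76% of the 19534 promoters of this length, CAGCTG in 13.6%, ACGTG in 18.7%, the MEF2 site in 2.55% and TGACGTCA in 1.7%. Of the other members, PYGB holds 2 matches to ACGTG and GYS2 1 match to ACGTG and 2 to TATAAA.

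The rest of the pathway was read from a list of 31 further genes, of which 26 were matched and 24 tested. In DOP vs. C 0 of the 24 were DEGs (0.764% of all tested genes) and 7 had an unadjusted p under 0.05 (17.6%), with 1 called by DESeq2 (PPP1R3G; 3.32%). In WCOC vs. C 1 of 24, HK2, was lower and 0 were higher (3.93% of all tested genes were lower), and in WCOC vs. DOP 3 of 24 were lower and 0 higher (5.11% were lower). The call of HK2 was lost in 8 of the 10 fits that left out a C or WCOC library, all but those without C5 or WCOC2, with adjusted p up to 0.106. In WCOC vs. DOP the count was 0 without DOP2, WCOC1 or WCOC4 and 1 without DOP4, DOP5, WCOC2, WCOC3 or WCOC5. The calls over all tested genes were also fewer in each of these fits than the 1158 of 14918 in the main fit. They ran from 639 of 15053 without WCOC1 to 1066 of 15081 without WCOC2. The median log2FC of the 24 was 0.07, −0.15 and −0.16 in the 3 comparisons.

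PPP1R3A, the subunit that targets protein phosphatase 1 to glycogen in muscle, ranged from 0.171 to 30.1 CPM in C, from 0.161 to 350 CPM in DOP and from 0.0653 to 3.84 CPM in WCOC. Its log2FC was −6.15 (SE 1.77, adjusted p = 0.0360) in WCOC vs. DOP, 3.48 (SE 1.52, adjusted p = 0.251) in DOP vs. C and −2.67 (SE 1.59, adjusted p = 0.303) in WCOC vs. C. Some DOP libraries were as low as those of the other diets and others far above them. Its call was lost in 8 of the 10 fits with a library left out (log2FC −4.20 without DOP5). Without the 5 ACTA1-rich libraries its log2FC was 0.64 (adjusted p = 0.904). That fit leaves out libraries by their level of a muscle gene, so it is no independent check of PPP1R3A. PHKG1, the muscle-type catalytic subunit of phosphorylase kinase, had a log2FC of 1.38 (SE 0.56, adjusted p = 0.218) in DOP vs. C and −1.11 (SE 0.55, adjusted p = 0.202) in WCOC vs. DOP. PPP1R3B, another targeting subunit best known from liver, had a log2FC of −0.95 (SE 0.30, adjusted p = 0.0586) in WCOC vs. C.

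The hexokinases HK1 and HK2 make glucose 6-phosphate, from which the glucose of glycogen is drawn. HK2 ranged from 282 to 447 CPM in C, from 206 to 320 CPM in DOP and from 139 to 279 CPM in WCOC, so C and WCOC did not overlap. Its log2FC was −0.63 (SE 0.19, edgeR adjusted p = 0.0478) in WCOC vs. C and −0.45 (SE 0.19, adjusted p = 0.238) in DOP vs. C. HK1 ranged from 209 to 299 CPM in C, from 183 to 297 CPM in DOP and from 110 to 209 CPM in WCOC, with a log2FC of −0.66 (SE 0.19, adjusted p = 0.0380) in WCOC vs. DOP. DYRK2, listed among the kinases of glycogen synthase, had a log2FC of −0.80 (SE 0.24, adjusted p = 0.0414) in WCOC vs. DOP. With a library left out the call of HK1 was lost in 7 of 10 fits and that of DYRK2 in 7 of 10, where DYRK2 had a log2FC of −0.48 without DOP5.

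PHKA2, the liver-type regulatory subunit of phosphorylase kinase, was higher in WCOC than in C by a log2FC of 0.45 (SE 0.12, edgeR adjusted p = 0.0306), under the limit on size, and had a log2FC of 0.37 (SE 0.12, adjusted p = 0.0544) in WCOC vs. DOP. PPP1R3G, at 0.467 to 3.10 CPM, had a log2FC of 0.71 (SE 0.33, adjusted p = 0.190) in WCOC vs. C, where its libraries did not overlap, and of 1.13 (SE 0.33, adjusted p = 0.114) in DOP vs. C. PGM2, a phosphopentomutase, had a log2FC of −0.27 (SE 0.14, adjusted p = 0.343) in DOP vs. C and 0.23 (SE 0.14, adjusted p = 0.324) in WCOC vs. DOP. PHKA1 and G6PC1 were matched and did not pass the filter on low counts.

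**Figure D5:**
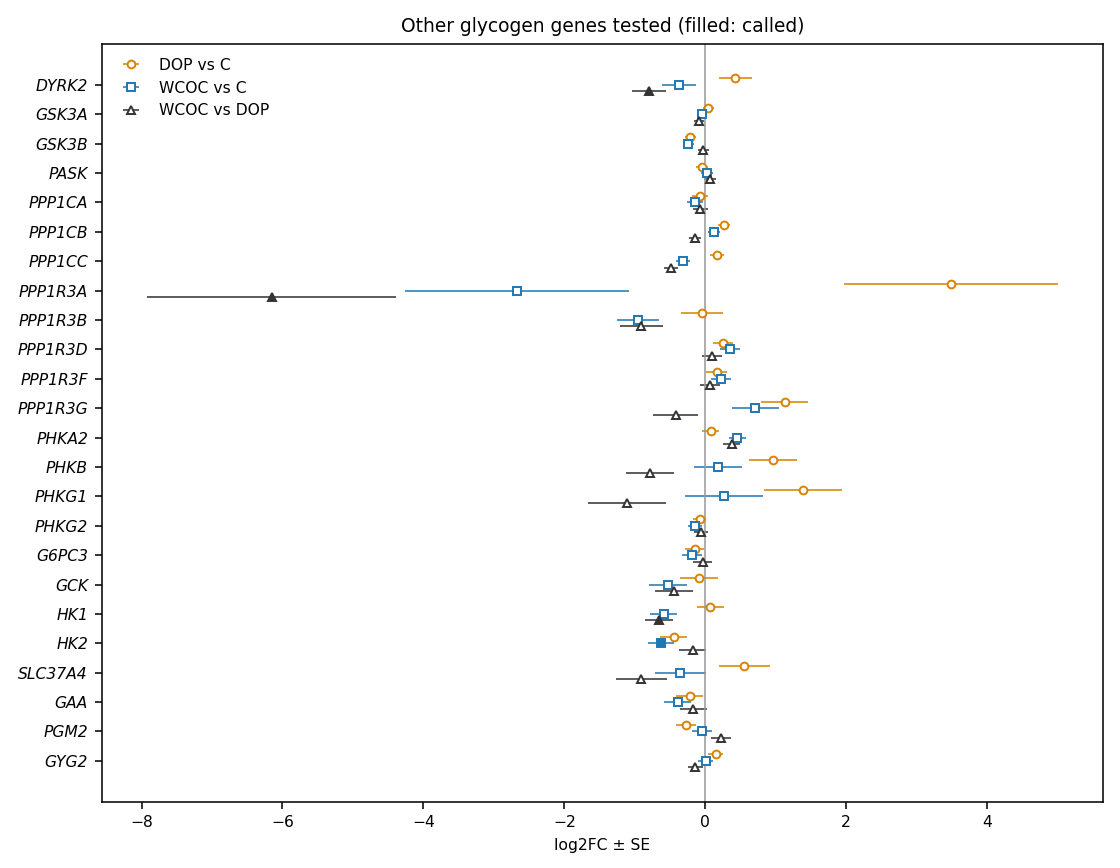
Log2FC of the 24 further glycogen genes tested, for each olive diet against C and for WCOC against DOP, with bars of 1 SE; filled points are DEGs. The widest bars belong to PPP1R3A (SE 1.52 to 1.77), and the DEGs are HK2 in WCOC vs. C and DYRK2, HK1 and PPP1R3A in WCOC vs. DOP, all lower in WCOC.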

How the data were processed

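RNA of backfat from 5 pigs per diet was read as 15 libraries, 1 per pig. Per the methods, the authors checked the reads with FastQC, aligned them untrimmed to Sscrofa11.1 with HISAT2 in a strand-specific mode, and counted read pairs per Ensembl gene with HTSeq-count; the deposited files hold these raw counts, neither normalized nor pooled. Which Ensembl release was used, and whether the counting was stranded, is not given in the sources used here, which leaves the counts of overlapping genes uncertain. The 5 lines for uncounted pairs (23.4% to 32.8% of a library) were left out.

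Counts were filtered (filterByExpr by diet), TMM-scaled and tested two-sided with the quasi-likelihood test of edgeR 4.0.16 in R 4.3.3, with 1 mean per diet over all 15 libraries. Log2 CPM used a prior count of 1. Correlations with ACTA1 used 100000 permutations, and correlations between genes covered 11132 genes with a symbol and a mean of at least 1 CPM. Lengths, positions and sequences come from the RefSeq annotation of Sscrofa11.1. The workflow was tested on simulated data.

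Groups and replicate numbers were taken from the labels and flow cells from the run identifiers. The 9 genes, the lists and the tests were chosen with earlier results of these data known. Named are the 9 genes, ACTA1, further glycogen genes called or among the 2 largest rises or falls per comparison (mean of at least 1 CPM), and the 3 genes most like each of the 9; PPP1R3G in the DESeq2 count was named after its value was seen. Alternatives were DESeq2 1.42.0 (size factors and test), TMM without muscle and the 50 most abundant genes, other filters (none, or 10 counts in each library), no fold limit, limma-voom (limma 3.58.1), a fit on 2 diets, the replicate block, flow cell, the muscle list as a covariate, coding length, each library left out in turn and, chosen after seeing the data, the fit without 5 ACTA1-rich libraries. Of the other marker lists, endothelial genes (6 of 7 matched) summed to 864 to 1533 CPM and epidermis and hair follicle genes (4 of 7) to 1.61 to 128 CPM. A further gene of the pathway is not reported here.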

Additional observations from a re-analysis of the deposited data

Results flagged for a closer look

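In 27 checks (9 genes in 3 diets of 5 libraries), 4 had 1 library farther from the others than Dixon's 95% limit (0.71 for 5 values), and chance gives about 1 such flag in 20 checks. All 4 were the highest value of DOP5: PYGM at 4691 CPM, GYS1 at 332.8 CPM, GYG1 at 161.2 CPM and PPP1R3C at 130.9 CPM. DOP5 is also the library with the most ACTA1 (23994 CPM). Without DOP5, the log2FC in WCOC vs. DOP was −1.17 for PYGM, −0.15 for GYS1, −0.89 for GYG1 and −0.36 for PPP1R3C.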

How the results depend on the processing

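Of the 9 genes, DESeq2 called 1 in DOP vs. C (PYGM, log2FC 2.27, adjusted p = 0.0453). In WCOC vs. C, 0 were called under the replicate block or without the 5 ACTA1-rich libraries, and 0 to 1 with a library left out. In WCOC vs. DOP, 0 were called by limma-voom, in the fit of only these 2 diets, under the replicate block, with flow cell or the muscle list as a covariate, or without the 5 libraries, and 0 to 2 with a library left out. Of the further glycogen genes, DESeq2 called 1 in DOP vs. C. In WCOC vs. C the count was 3 by DESeq2, 2 without a fold limit, with flow cell or with the muscle list, 0 without the filter, under the block or without the 5 libraries, and 0 to 2 with a library left out. In WCOC vs. DOP it was 1 by limma-voom, in the fit of 2 diets, under the block or with the muscle list, 0 with flow cell or without the 5 libraries, and 0 to 3 with a library left out. Of 14918 genes tested, WCOC vs. C gave 1181 calls by DESeq2, 1493 without a fold limit, 680 with flow cell and 879 with the muscle list. It gave 804 of 22920 without the filter and 468 to 1163 with a C or WCOC library left out. WCOC vs. DOP gave 822 by limma-voom, 869 of 14574 in the fit of 2 diets, 1 with flow cell and 448 with the muscle list. With a DOP or WCOC library left out it gave 639 to 1291. The causes were not tested. Fits with fewer libraries have fewer degrees of freedom.

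Directions turned for small differences. The 5 ACTA1-rich libraries are also those with the most PYGM and GYG1, so without them the loss of large differences in these genes was set by the choice. What remained were small values of either sign, which are not read as a reversal. In the main fit PYGM had a log2FC of 2.27 in DOP vs. C and −2.68 in WCOC vs. DOP, and GYG1 1.05 in DOP vs. C. With flow cell as a covariate the log2FC in DOP vs. C was 0.42 for GYS2 and 0.18 for PPP1R3C. With the muscle list it was 0.10 for GYS2 in DOP vs. C, and in WCOC vs. C 0.018 for GYS1 and 0.29 for PYGM. Without the 5 libraries it was 0.10 for PYGL, −0.064 for GYG1 and −0.046 for PYGM in DOP vs. C, and for PYGM 0.18 in WCOC vs. C and 0.22 in WCOC vs. DOP. With a library left out, GYS2 ran from −0.22 to 0.026 and PYGB from −0.35 to 0.0017 in DOP vs. C, PYGB from −0.22 to 0.28 in WCOC vs. C, and in WCOC vs. DOP PYGL from −0.15 to 0.081 and PYGB from −0.025 to 0.44.

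Deviations of libraries of the same replicate number correlated at r from −0.50 to 0.34 over 5 numbers in 3 comparisons. Libraries of different numbers were not compared in this way, so the check cannot settle whether the numbers pair pigs. The main fit treats them as unpaired. The block lowered the calls over all genes from 114, 933 and 1158 to 0, 473 and 561 for DOP against C, WCOC against C and WCOC against DOP. Across all genes DOP vs. C gave 495 calls by DESeq2, 19 by limma-voom, 2 in the fit of 2 diets and 0 to 200 with a library left out. PYGB, at 42 to 126 counts per library, is the member whose values are most limited by depth. By coding length its median share of the phosphorylase level was 0.547%, 0.357% and 0.633% in C, DOP and WCOC, and the PYGM share exceeded that of PYGL in each diet (52.4%, 81.4% and 53.6% against 47.0%, 18.5% and 46.0%).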
